A study of Nothobranchius furzeri with 10 samples.

Results

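The gene models described here are the 67 of 26739 whose level in muscle was lower in every exercised sample than in every unexercised sample of the turquoise killifish, Nothobranchius furzeri, an annual fish with a short life. They were chosen by their measured levels in these same 10 libraries. Read counts were normalised by median-of-ratios size factors, which align the libraries on the gene models counted in all of them, and scaled by the mean library total to CPM, the usual depth-scaled read count. A member had a mean of at least 5 normalised CPM over the 10 libraries and an exercised maximum below its unexercised minimum. Its unexercised mean was at least 1.5 times its exercised mean, and it was not among the 100 most abundant gene models. The rule fixed the direction, the lack of overlap and the least size of the difference, so these are given as a description and were not tested.

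Sequenced muscle RNA came from 5 samples of exercised males, which were put in a swim tunnel, and from 5 samples of unexercised males without any perturbation. Both groups were 10 weeks old and both came from line 4010, which carries Tg(mylz2:egfp,tfam), so the unexercised samples carried the transgene too. The mylz2 gene encodes a myosin light chain of fast muscle, and egfp encodes a green fluorescent protein. The tfam gene encodes a factor that binds mitochondrial DNA and takes part in its transcription. The labels do not say that each sample came from a separate animal, so the spread between samples may be technical. The question of the design was how muscle transcripts differ with physical exercise.

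Skeletal muscle is built of fibres that differ in contraction speed and in their balance of glycolytic and mitochondrial energy supply, and it also holds vessels, nerves, connective tissue and immune cells. Contraction alters the transcription of many muscle genes, and some of these responses are decreases. In a bulk sample, fewer cells of a type and less RNA per cell cannot be told apart. The identifiers carry no gene names in the files, and 0 of them matched the reference gene table used here. No member could therefore be given a role or a pathway, and the muscle label was not checked against marker genes. Identifiers are printed for only 2 members, and the others are called by their rank in mean level or in ratio, where ratio is the unexercised mean over the exercised mean.

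Libraries held 25927913 to 40433810 counts. Exercised replicate 3 and unexercised replicate 4 stood apart from the other 8, with TMM factors (edgeR's scaling for composition) of 1.678 and 1.697 against 0.7558 to 0.9496. Over the 8468 eligible gene models, those with a mean of at least 5 normalised CPM and outside the 100 most abundant, these libraries departed from their groups together. Across those gene models, log2 of exercised replicate 3 over the mean of the other 4 exercised libraries correlated at r = 0.938 with the same measure of unexercised replicate 4. This r is a description across genes of libraries that share their scaling. Several results that rest on these libraries are given with and without them.

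Of the 8468 eligible gene models, 117 (1.38%) had every exercised library below every unexercised library, and the ratio of at least 1.5 kept 67 of them (0.791%). In the opposite direction 153 (1.81%) did not overlap and 108 (1.28%) met the mirrored rule, so the lower set was the smaller of the pair. Another 259 eligible gene models had a ratio of at least 1.5 but overlapping groups, and 57 met all but the minimum mean. None of the 100 most abundant gene models met the other terms of the rule.

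The members near each threshold differed little from those just outside it. The smallest ratio inside was 1.501, with means of 19.6 and 29.4 normalised CPM in exercised and unexercised muscle, and the largest ratio outside among gene models without overlap was 1.46. At the minimum mean, the lowest member had 5.34 normalised CPM and the nearest gene model outside had 4.92. At the edge of overlap, the closest member had an exercised maximum of 10.36 and an unexercised minimum of 10.37 normalised CPM. A gene model left out for overlap had 7.40 and 7.39.

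Members were mostly of moderate level. Their mean over the 10 libraries had a median of 14.3 normalised CPM (quartiles 8.26 and 24.99), against 15.8 (quartiles 8.80 and 33.6) over all eligible gene models. Only 4 members exceeded 50 normalised CPM, 21 lay between 20 and 50, 22 between 10 and 20, and 20 below 10. The lowest count of any member in any library was 57, and the median of their mean counts was 460. The lowest unexercised library was a median of 1.09 times the highest exercised library. Whether counting noise alone could close such gaps was not tested.

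**Figure D1:**
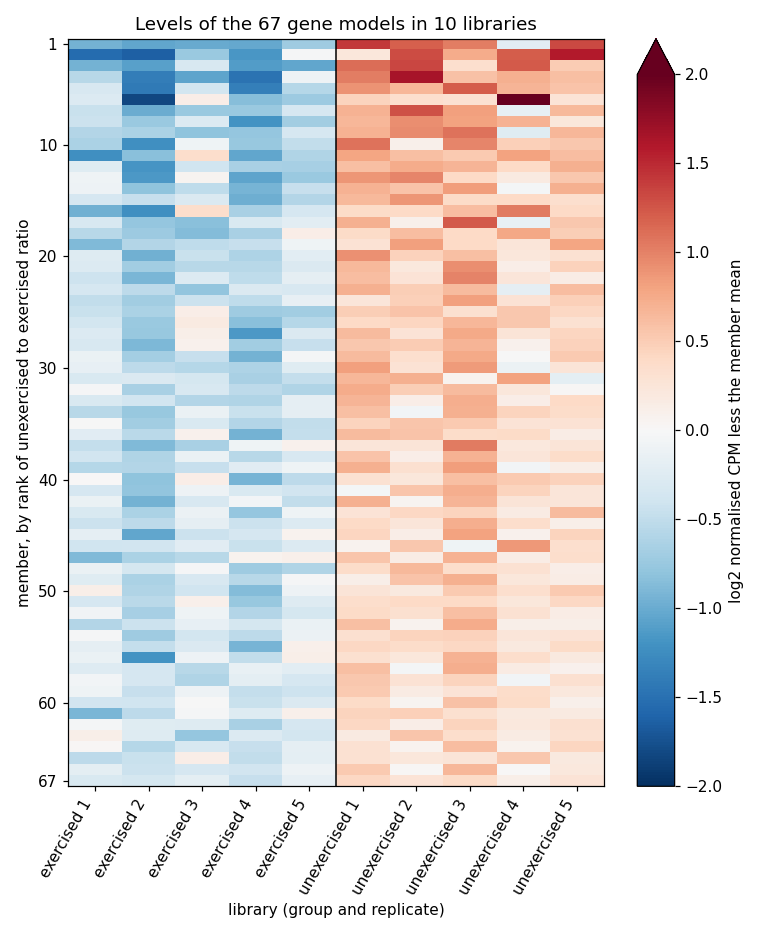
Levels of the 67 members (rows, by rank of the unexercised to exercised ratio) in the 10 libraries (columns), as log2 normalised CPM less the mean of that member. The block of 5 exercised libraries is the lower one for each row by construction, and unexercised replicate 3 is the highest unexercised library in 32 rows.

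Together the members summed to 1179, 922, 1100, 955 and 1140 normalised CPM in exercised replicates 1 to 5 and to 1971, 2036, 2095, 1760 and 1831 in unexercised replicates 1 to 5. The mean of these sums was 1059 ± 114 for exercised libraries and 1939 ± 140 for unexercised libraries (SD, n = 5 each), a ratio of 1.83. The most abundant member made up 17.2% of the sum, and without it the sums were 854 ± 114 and 1628 ± 123 (ratio 1.91). As a share of all reads counted to gene models, the members took 0.0794% to 0.196% in exercised and 0.163% to 0.311% in unexercised libraries. These shares overlap, and in each group the library that stood apart had the highest share.

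The most abundant member, Nfu_g_1_013319, had 271, 209, 145, 206 and 193 normalised CPM in exercised replicates 1 to 5. In unexercised replicates 1 to 5 it had 281, 366, 317, 280 and 308. Exercised replicate 1 lay just under the lowest unexercised library, which was 1.03 times as high, and exercised replicate 3 was the lowest of all 10. Its means were 205 ± 45.1 and 310 ± 35.1 (SD, n = 5 each). The ratio of 1.52 ranked 63 of 67, so this member combined the highest level with a ratio close to the threshold.

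The second most abundant member had 21.5, 28.0, 64.1, 24.5 and 33.2 normalised CPM in exercised replicates 1 to 5 and 86.7, 76.5, 72.5, 87.8 and 77.3 in unexercised replicates 1 to 5. The unexercised libraries were close together, while exercised replicate 3 stood far above the rest of its group. Its ratio was 2.34 with all libraries and 2.92 without exercised replicate 3 and unexercised replicate 4.

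The third member in mean level was a gene model with 27.9, 15.7, 19.8, 14.8 and 38.2 normalised CPM in exercised replicates 1 to 5. In unexercised replicates 1 to 5 it had 83.3, 129, 61.8, 67.2 and 62.3. Here the libraries that stood apart lay inside the range of their groups, and the ratio of 3.47 with all 10 libraries was 3.49 without them. Its lowest unexercised library was 1.62 times its highest exercised library, the second widest gap among the members.

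The next members by level had smaller ratios. The fourth had 30.6 to 46.2 normalised CPM in exercised libraries (median 37.7) and 53.4 to 73.2 in unexercised libraries (median 60.6), a ratio of 1.61. The fifth had 28.5 to 38.5 (median 31.6) and 50.8 to 88.2 (median 63.6), a ratio of 1.96. In both, unexercised replicate 3 was the highest library. Members ranked 6 to 10 by level had exercised means of 24.6 to 35.3 and unexercised means of 44.9 to 57.8 normalised CPM, with ratios of 1.64 to 1.86.

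The largest ratio belonged to Nfu_g_1_007294, with 4.69, 4.42, 4.48, 4.47 and 5.53 normalised CPM in exercised replicates 1 to 5 and 24.0, 20.8, 18.4, 7.80 and 22.5 in unexercised replicates 1 to 5. Its exercised libraries were nearly alike, and unexercised replicate 4 stood well below the other 4 unexercised libraries without reaching the exercised range. The means were 4.72 ± 0.466 and 18.7 ± 6.44 (SD, n = 5 each), and the ratio of 3.96 was 4.49 without exercised replicate 3 and unexercised replicate 4.

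The member second in ratio had 3.31, 3.10, 5.73, 4.30 and 9.44 normalised CPM in exercised replicates 1 to 5 and 11.2, 23.8, 16.0, 22.2 and 28.7 in unexercised replicates 1 to 5. Both groups spread widely around a ratio of 3.94, and exercised replicate 5 and unexercised replicate 1 came nearest to each other. The third member in ratio had 11.9, 10.8, 18.5, 10.6 and 11.2 in exercised replicates 1 to 5 and 49.8, 58.0, 29.03, 53.8 and 32.6 in unexercised replicates 1 to 5. Its ratio was 3.54, and 3.81 without exercised replicate 3 and unexercised replicate 4. In this member exercised replicate 3 was again the highest exercised library.

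**Figure D2:**
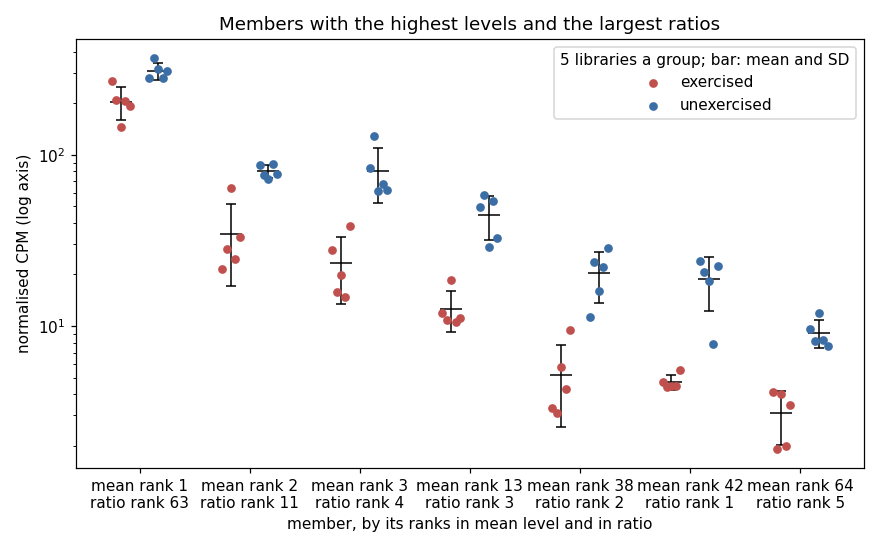
Normalised CPM on a log axis for the 3 members with the highest mean and the 5 with the largest ratio (7 members, as 1 is in both sets); points are libraries, and bars are the mean and SD of 5 libraries per group. The red exercised points lie below the blue unexercised points for each member, with the narrowest gap for the most abundant member (271 against 280) and unexercised points spread from 7.80 to 24.0 for the member with the largest ratio.

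The member with the widest gap ranked 5 in ratio and 64 in mean level. It had 4.11, 1.92, 4.003, 1.99 and 3.46 normalised CPM in exercised replicates 1 to 5 and 9.64, 8.16, 11.9, 8.28 and 7.67 in unexercised replicates 1 to 5. Its lowest unexercised library was 1.87 times its highest exercised library, and its ratio was 2.95. The identifier of this member and that of the third most abundant member differ by 2 in their number. They held the widest and the second widest gap of all members, and both their ratios were among the 5 largest. A further pair had consecutive numbers, with ratios of 1.52 and 1.65, and the 108 gene models of the mirrored set held 0 pairs within 2 numbers. Of the 8468 eligible gene models, 5162 had another eligible one at a consecutive number. How many near pairs a random set of 67 would hold was not worked out, so nothing is read from these pairs. The files do not say whether neighbouring numbers lie next to each other in the genome.

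The size of the ratio of the member sixth in order depended on 1 library. It had 25.9 normalised CPM in unexercised replicate 4 and 7.02 to 7.92 in the other 4 unexercised libraries, against 1.64 to 6.34 in exercised libraries. Its ratio of 2.84 became 2.23 without exercised replicate 3 and unexercised replicate 4. Exercised replicate 3 was its highest exercised library, so leaving that library out raises the ratio. The value of 2.23 therefore understates the effect of leaving out unexercised replicate 4 alone. The member seventh in ratio went the other way, with 19.7 in unexercised replicate 4 and 34.6 to 53.2 in the other unexercised libraries. Its exercised libraries had 11.1 to 17.4. The ratio was 2.56 with all libraries and 2.81 without exercised replicate 3 and unexercised replicate 4. Members ranked 8 to 10 by ratio had exercised means of 3.20 to 4.78 and unexercised means of 7.94 to 11.9 normalised CPM, with ratios of 2.41 to 2.48.

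Over all 67 members the ratio had a median of 1.77 (quartiles 1.62 and 2.04). In other terms, exercised muscle was lower by a median of 43.6% (33.4% to 74.8%). A ratio of at least 2 was found for 19 members and of at least 3 for 4 members. Between mean level and ratio, Spearman rho was -0.016, a description across 67 gene models that share libraries. Most gaps were narrow. The lowest unexercised library exceeded the highest exercised library by at least 1.2 times for 17 members and by at least 1.5 times for 5.

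Length, which the rule did not use, was worked out from the deposited counts and RPKM, the reads scaled to length and library size. Members had a median length of 4353 bases (quartiles 2456 and 5493), against 3340 bases (quartiles 1792 and 5574) over all eligible gene models and 3550 in the mirrored set. The quartile ranges of members and eligible gene models overlap almost wholly, and 24 members (35.8%) exceeded 5000 bases against 30.4% of eligible gene models. Per length, the order of levels changed. The highest level belonged to the member sixth by CPM, a model of 663 bases, with 53.3 normalised CPM per kilobase in exercised and 87.2 in unexercised muscle. Nfu_g_1_013319, with a length of 5070 bases, ranked 3 at 40.4 and 61.2 normalised CPM per kilobase. The median over members was 3.96 normalised CPM per kilobase, against 5.28 over all eligible gene models.

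Within each group the members leaned on the same libraries. Exercised replicate 2 was the lowest exercised library for 30 members (44.8%, against 9.15% of eligible gene models) and exercised replicate 4 for 24 (35.8% against 10.2%). Exercised replicate 3 was the lowest for 7 (10.4% against 47.3%), replicate 1 for 6 (8.96% against 21.0%) and replicate 5 for 0 (0% against 12.3%). In the mirrored set, exercised replicate 4 was the highest exercised library for 77 of 108 (71.3%). Among unexercised libraries, replicate 3 was the highest for 32 members (47.8% against 23.2%) and replicate 4 for 7 (10.4% against 34.5%). The lowest unexercised library was replicate 4 for 30 members (44.8%), close to its share of 47.1% over eligible gene models. Exercised replicate 5 was the highest exercised library for 25 members (37.3% against 16.2%) and replicate 3 for 23 (34.3% against 31.6%). The order of libraries within a group is bounded by the rule, which admits no overlap, so these counts describe the members and were not tested.

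The rule bounds how far the libraries that stood apart can depart from their groups in a member. Exercised replicate 3 was at a median of 1.09 times the mean of the other 4 exercised libraries over members (quartiles 0.941 and 1.31), against 0.855 (quartiles 0.528 and 1.37) over eligible gene models. Unexercised replicate 4 was at 0.869 times the mean of the other 4 unexercised libraries (quartiles 0.778 and 0.994), against 0.881 (quartiles 0.561 and 1.42). In 28 members exercised replicate 3 was above and unexercised replicate 4 below the rest of its group, so that both narrowed the difference, and in 1 member both widened it. In the other 38 members they departed in the same direction, 16 upward and 22 downward. Of the 108 in the mirrored set, 57 had exercised replicate 3 below and unexercised replicate 4 above the rest of its group. There this narrows the difference, and the reverse, which widens it, held in 1. Narrowing by both libraries thus outnumbered widening by both in either set. The 8468 eligible gene models differ between groups in either direction, so narrowing and widening are not defined for them as a set. Exercised replicate 3 was above and unexercised replicate 4 below the rest of its group in 396 of them. The reverse held in 559. Both libraries departed upward in 3055 and downward in 4458. Without these libraries the ratio was larger for 59 of 67 members, with a median of 1.87 (1.45 to 4.49). Over eligible gene models the median ratio was 1.003 with all libraries and 0.994 without these.

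**Figure D3:**
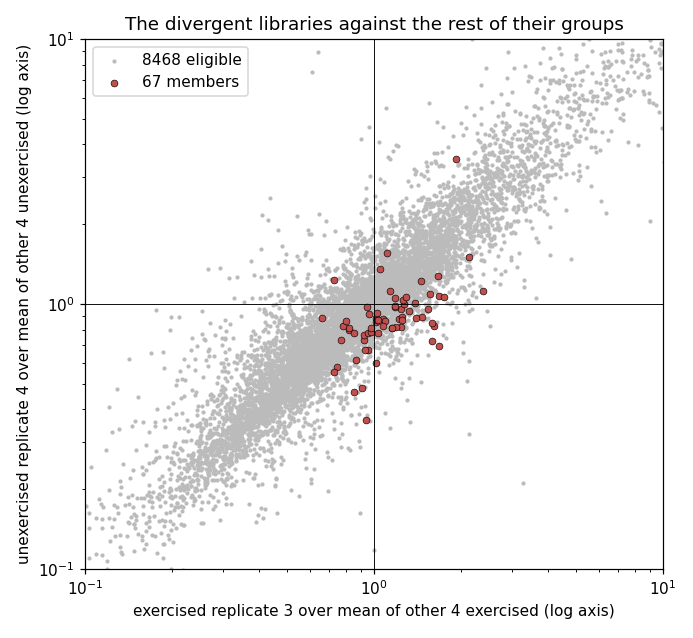
Exercised replicate 3 over the mean of the other 4 exercised libraries (x, log axis) against unexercised replicate 4 over the mean of the other 4 unexercised libraries (y, log axis), for 8468 eligible gene models in grey and the 67 members in red; 297 eligible gene models lie beyond the axes. Grey points run along the diagonal (r = 0.938), and 28 red points lie in the lower right part, where both libraries narrow a member's difference. Of the 8468 eligible gene models, which differ in either direction, 396 fall there.

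Each library was left out in turn, members were chosen again from the other 9, and the left-out library was placed against all 5 libraries of the other group. Those 5 libraries took part in the choice and the scaling used all 10, so a high share is partly set by the rule and is given as a description only. Exercised libraries lay below every unexercised library for 68 of 92 (73.9%) in replicate 1, 64 of 65 (98.5%) in replicate 2, 61 of 63 (96.8%) in replicate 4 and 67 of 86 (77.9%) in replicate 5. Unexercised libraries lay above every exercised library for 61 of 78 (78.2%) in replicate 1, 65 of 74 (87.8%) in replicate 2, 59 of 62 (95.2%) in replicate 3 and 66 of 73 (90.4%) in replicate 5. The libraries that stood apart gave lower shares, 65 of 187 (34.8%) for exercised replicate 3 and 67 of 171 (39.2%) for unexercised replicate 4. Over eligible gene models the same placement held for 28.0% in exercised replicate 3 and 21.9% in unexercised replicate 4. In the other libraries it held for 12.6% to 19.6% of eligible gene models.

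A reading in which neither library took part in the choice was added after the data had been seen. For each of the 25 pairs of 1 exercised and 1 unexercised library, members were chosen from the other 8 libraries, and the left-out pair was compared. In the 16 pairs without exercised replicate 3 or unexercised replicate 4, the exercised library was lower for 65.8% to 100% of the 54 to 114 gene models chosen, with a median share of 94.8%. Among eligible gene models the exercised library was lower for 43.2% to 52.4% in these pairs.

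The pairs with 1 of the libraries that stood apart gave lower shares. In each of these pairs the other such library took part in the choice. Its part in the shares was not tested. Exercised replicate 3 was lower than each of unexercised replicates 1, 2, 3 and 5 for 33.6% to 36.6% of the gene models chosen, below the 56.3% to 58.8% of eligible gene models. Against unexercised replicate 4, the other 4 exercised libraries were lower for 27.2% to 55.2%, beside 40.8% to 43.6% of eligible gene models. In all, the share of chosen gene models was above that of eligible ones in 19 pairs and below it in 6. The pairs share libraries, gene models and the scaling, so they are not 25 separate results, and no test was made.

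**Figure D4:**
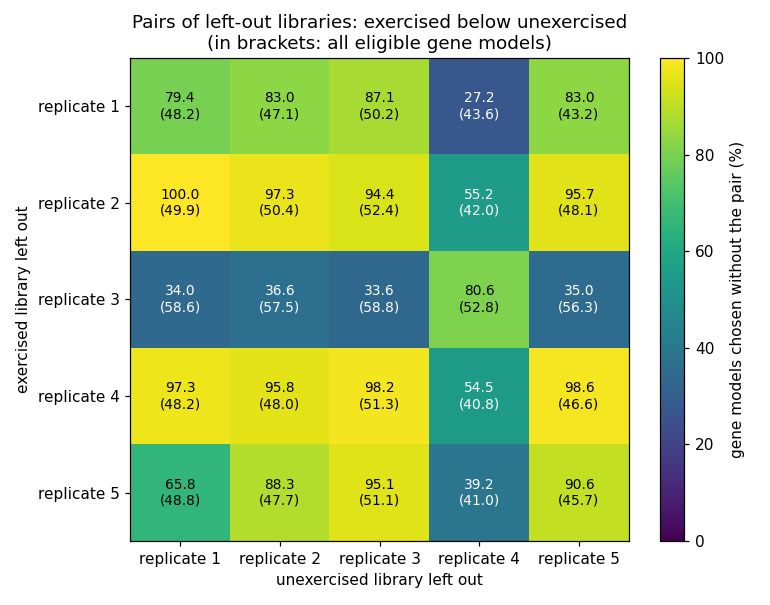
Share of gene models (%, colour and upper number) chosen without a pair of libraries for which the left-out exercised library (rows) lay below the left-out unexercised library (columns), with the share of eligible gene models in brackets. Shares are 65.8% to 100% in the 16 pairs without exercised replicate 3 or unexercised replicate 4, 27.2% to 55.2% in the 8 pairs with 1 of them, and 80.6% in the pair of both.

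With exercised replicate 3 and unexercised replicate 4 both left out, the rule chose 206 of 8055 eligible gene models. Among them were 66 of the 67 members. Lack of overlap in all 10 libraries ensures it in the other 8, so a member could drop out only by its mean, ratio or abundance rank. The count of 66 is therefore largely set by the rule and is given as a description only. In the left-out pair, exercised replicate 3 was below unexercised replicate 4 for 166 of the 206 (80.6%), against 52.8% of eligible gene models. The remaining member was Nfu_g_1_013319, whose ratio over the 8 libraries was 1.45.

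Lack of overlap of the members in all 10 libraries was not kept on every scaling. With counts divided by library totals only, unexercised means were still higher than exercised means for 67 of 67 members (ratio 1.45 to 3.87). On this scaling, 10 members were free of overlap. As the members were chosen for lack of overlap on another scaling, that count could only stay the same or fall. The whole rule chose 33 gene models on this scaling, 10 of them members. The share of eligible gene models free of overlap in all 10 libraries was not counted for library totals. The counts of 10 and 33 therefore have no background beside them, and nothing is read from their size. Unexercised replicate 4 was then the highest of all 10 libraries for 61 members. Without exercised replicate 3 and unexercised replicate 4, library totals gave no overlap for 60 of the 67 members, against 6.83% of eligible gene models. Members were chosen for lack of overlap in these same libraries, on median-of-ratios scaling, and eligible gene models were not. The count of 60 is therefore largely set by the rule and is given as a description only. That last count was added after the data had been seen.

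All 67 members were also among the 15337 gene models fitted across the table with edgeR's quasi-likelihood test. The rule used this contrast, so the counts of calls are given beside their background and nothing is read from them. With 10 libraries, 0 members passed an adjusted p of 0.05 and 0 gene models were called lower (0%). At an unadjusted p under 0.05 there were 67 of 67 members, and 549 gene models (3.58%) were lower. DESeq2, another count test, called 60 members lower, with 1.02% of gene models called lower. In edgeR, 34 members were called without exercised replicate 3 (background 0.448%), 14 without unexercised replicate 4 (background 0.175%) and 60 without both (background 2.38%). The members' log2 fold changes, exercised over unexercised, had a median of -0.82 (-1.98 to -0.58) with 10 libraries, against -0.02 over all gene models fitted.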

How the data were processed

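Muscle RNA of 10 libraries, 5 per group, was grouped by the perturbation label. Replicates were numbered within each group, and these numbers pair nothing. The deposited table holds whole-number read counts per gene model, made by the authors; featureCounts 1.4.6-p4, STAR 2.4.1d and bcl2fastq 1.8.4 are named, without their roles, per the submitters' processing notes. Not given in the sources used here are the build, the annotation and the strandedness of counting. Reads of gene models that overlap, lie antisense or are near copies cannot be told apart. The deposited RPKM values were used only for lengths. They followed from the counts when library totals ran down the rows of the table (100% of values in 13844 gene models matched within 0.1% plus 0.001).

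The members and lists were chosen with earlier results of these data known. Levels are counts divided by median-of-ratios size factors and scaled to CPM by the mean library total. The fit used edgeR 4.0.16 in R 4.3.3 (quasi-likelihood test, robust, TMM factors, group as the only term, filterByExpr with minimum count 10 and minimum total 15, Benjamini-Hochberg adjusted p under 0.05). Alternatives were other scalings, no filter, other thresholds of the rule, DESeq2 1.42.0, each library left out and each pair of libraries left out. The tests and the rule were tried on simulated data as a check of the code. For the rule, the ratio set in the simulation was larger than that of any member. Its behaviour at the ratios of the members was therefore not examined. Members described are the 10 highest by mean and the 10 highest by ratio. The identifiers printed are those of the first of each. Replicate pairs differed far beyond sampling noise in counts scaled only by library totals (lowest chi-square per degree of freedom 27.6 over 20 pairs). That measure used no size factors or TMM factors, so differences in composition can add to it. It does not give the spread on the scaling used for the members. Marker and pathway lists planned for this table were not analysed here, as the identifiers carry no names. Python 3.11.15 with matplotlib 3.10.9 was used for the figures.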

Additional observations from a re-analysis of the deposited data

Results flagged for a closer look

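Of 40 groups of 5 libraries checked (19 members described by rank and the summed level), 5 held a library far from the rest. Chance flags about 1 in 20 among independent normal values. These groups share libraries, and their members were chosen by rank and by the rule, so the 5 cannot be set against that rate. The second member by mean level had 64.1 normalised CPM in exercised replicate 3, against 21.5 to 33.2 in the other exercised libraries. The seventh by mean level had 45.6 in the same library, against 25.3 to 30.6. Its ratio of 1.86 with all libraries was 2.09 without exercised replicate 3 and unexercised replicate 4. The third by ratio had 18.5 in exercised replicate 3, against 10.6 to 11.9. Nfu_g_1_007294 had 5.53 in exercised replicate 5, against 4.42 to 4.69. The sixth by ratio had 25.9 in unexercised replicate 4, against 7.02 to 7.92 in the other unexercised libraries. Of the 5 values, 4 came from the pair of libraries that stood apart, and the part of those libraries in each difference was not tested beyond the ratios given without them.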

How the results depend on the processing

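The number of members was 67 of 8468 eligible gene models as reported and 19 with a ratio of at least 2. With library totals only it was 33, 10 of them among the 67. Without exercised replicate 3 and unexercised replicate 4 it was 206 of 8055. Leaving out 1 library gave 62 (of 8507) to 187, with 187 of 8339 without exercised replicate 3 and 171 of 8308 without unexercised replicate 4. Lack of overlap is easier to meet with fewer libraries, so the size of these rises is not read as a result. Without both libraries, 523 of the 8468 eligible gene models (6.18%) had no overlap in the lower direction, against 117 (1.38%) with 10 libraries. With TMM factors the number of members was 65, of which 58 were among the 67. Gene models called lower numbered 0 as reported, 125 in DESeq2 and 362 without both libraries, and 0 to 69 with 1 library left out (69 without exercised replicate 3 and 27 without unexercised replicate 4). Members called lower numbered 0, 60 in DESeq2 and 60 without both, and 0 to 34 with 1 library left out. The cause was not tested. The median log2 fold change of the members ranged from -0.90 to -0.75 over 15 alternatives. Group means of the summed level, the median length and the median left-out share moved by less than the spread between libraries or members. With library totals, however, the summed levels of the groups overlapped, with 1960 CPM in exercised replicate 3 and 1627 CPM in unexercised replicate 5. Their SD was then 482 for exercised and 607 for unexercised libraries. No paired analysis was possible because the replicate numbers were given in accession order and pair no samples.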
